A study of Drosophila melanogaster with 51 samples.

Results

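The background regions are the 500 rows of a list that the authors deposited beside their HP1 and H3K9me3 peak lists, and each row is named after replicate 1 of an anti-GFP profile of yw wing imaginal discs. All rows were taken, 500 of the 4180 rows in the 3 deposited lists, and no row was chosen by its value. The series profiled heterochromatin by CUT&RUN, which cuts out and sequences the DNA around an antibody bound in intact nuclei, in wing discs, the larval precursors of the wing and the dorsal thorax. It holds 51 libraries in 18 groups, of which 14 libraries used anti-GFP, 16 anti-HP1a, 15 anti-H3K9me3 and 6 anti-H3K27me3. Discs came from wandering female larvae of the last instar kept at 25 °C, at least 20 discs per library.

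The background list rests on yw, a stock with mutations in the body colour gene yellow and the eye colour gene white, in the fraction that the titles call pel. There are 2 libraries titled yw with anti-GFP, and the genotype label of both reads GFP-HP1a/+, so titles and labels do not match. The row names carry yw and replicate 1, and how replicate 2 entered the list is not given in the sources used here. The HP1 list is named after merged ywdf libraries of the fraction sup. The H3K9me3 list is named after HWT, whose larvae carry the histone locus deletion ∆HisC, twi-Gal4, a UAS-driven EYFP and the replacement histone transgene H3.2HWT, for 2047 peaks and after ywdf for 198, both pel. What ywdf stands for is not given. The names of the background rows also carry q5 and dupsRemoved, and those of the other lists q30 and dupsKept, so the lists differ in processing as well as in antibody and genotype. The lists hold peak calls and no value of a single library. Depth is therefore unknown, the spread among replicates could not be had, and no test was made. Whether disc markers were present could not be looked at in peak lists.

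In a disc without GFP, an anti-GFP antibody has no target, and the fragments it yields come from the nuclease, the antibody and the genome itself. Such fragments tend to pile up where a reference sequence is repeated or collapsed, such as ribosomal DNA, the histone gene cluster, satellites and the mitochondrial genome, and lists of these places are used to mask other profiles. HP1a is a chromosomal protein that binds H3K9me3, the methylated histone mark of pericentric heterochromatin and chromosome 4.

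The background regions lay mostly near the centromeres and on the X chromosome. Of the 500 regions, 266 (53.2%, exact binomial 95% interval 48.7 to 57.6, counting error only) lay in the pericentric parts and 204 (40.8%, 36.5 to 45.3) in the chromosome arms, with 7 on chromosome 4, 17 on the Y sequence and 6 on the mitochondrial sequence. Counted from the centromere, the pericentric part was set at 1.5 Mb on 2L, 5.4 Mb on 2R, 5.1 Mb on 3L, 4.6 Mb on 3R and 0.9 Mb on X, and the remainder was taken as the arm. In bases the pericentric share was 72.2% of the 450624 bp covered. The X chromosome held 199 regions (39.8%), and 3R held 97, 3L 74, 2R 57 and 2L 43. The corresponding X shares were 8.78% of the HP1 list and 3.39% of the H3K9me3 list, and chromosome 4 held 1.40% of the regions, 19.3% of the HP1 peaks and 9.62% of the H3K9me3 peaks.

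The X chromosome had the highest density of regions in both its arm and its pericentric part. The arms of 2L, 2R, 3L and 3R held 1.14, 1.41, 1.09 and 0.983 regions per Mb, and the X arm held 4.37. The pericentric parts held 12 per Mb on 2L, 5.37 on 2R, 9.61 on 3L, 15.2 on 3R and 111 on X. The 100 pericentric regions of X covered 16.1% of that part, compared with 0.427% of the pericentric part of 2R. The densities are given without an interval, and their spread among replicates could not be measured. Neighbouring regions are also not independent.

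**Figure D1:**
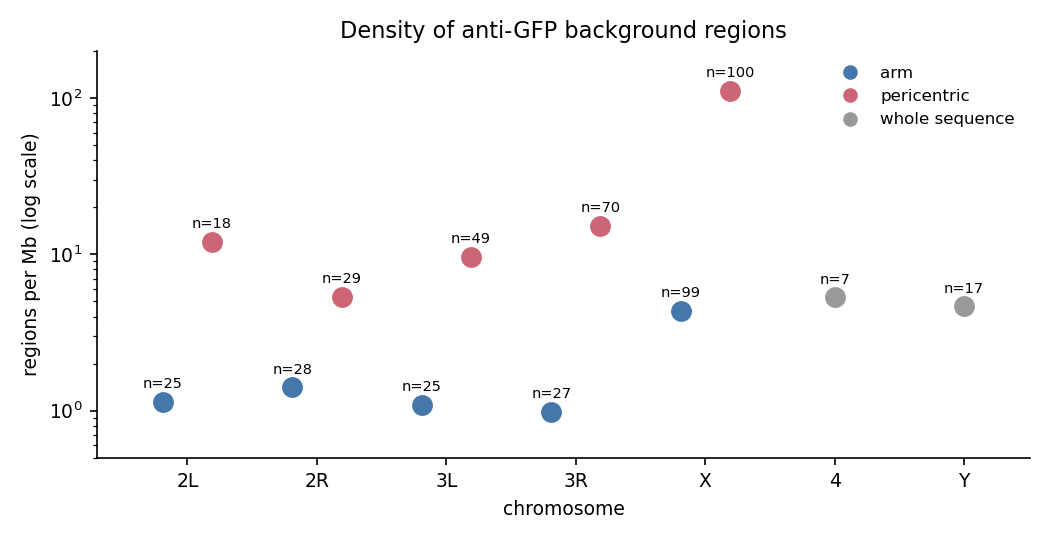
Background regions per Mb (log axis) in the arm and the pericentric part of each chromosome, and over the whole of chromosome 4 and Y, with the number of regions beside each point. The pericentric part of X stands at 111 per Mb and its arm at 4.37, above the other arms at 0.983 to 1.41.

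Regions were narrow and weak in most places and wide and strong in a few. The median width was 440.5 bp (order-statistic 95% interval 389 to 488), from 9 to 14318 bp. The median fold enrichment, the authors' ratio of a call's signal over what the caller modelled, was 4.45 (4.19 to 4.91), from 1.55 to 460. Among pericentric regions the medians were 594.5 bp and 5.87-fold, and among arm regions 302.5 bp and 3.50-fold. A fold above 10 was listed for 103 regions, of which 75 were pericentric and 23 in the arms, and a fold above 30 for 36. Among the 136 regions with a fold of 3 or less the median width was 218 bp, and among the 36 with a fold above 30 it was 2014 bp. The caller's fold and the width come from the same signal, so the 2 are not independent. None of the 8 regions narrower than 50 bp contained the summit of its call, so their folds belong to wider calls.

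**Figure D2:**
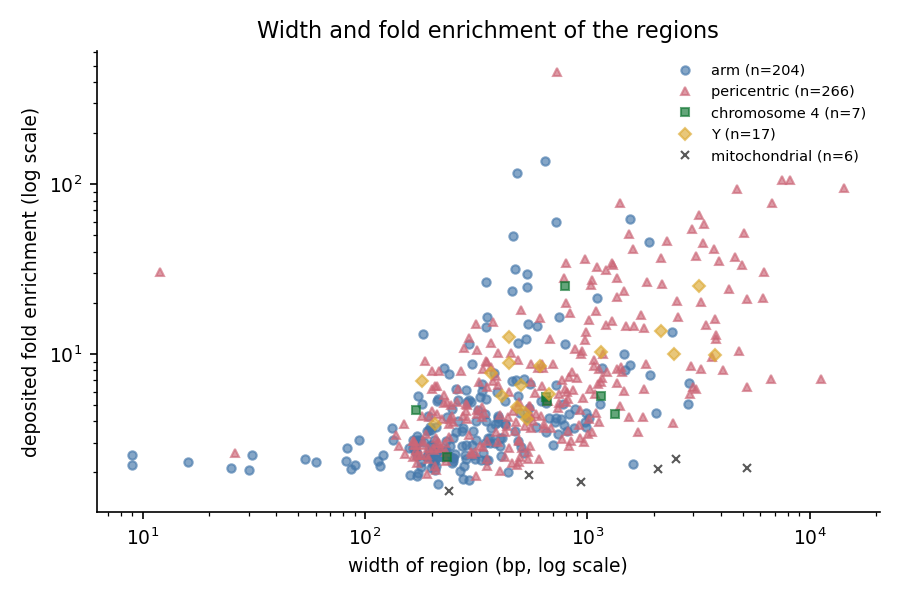
Width (bp) and deposited fold enrichment of each of the 500 regions, both on log axes, by chromosome part. The 6 mitochondrial regions lie at folds of 1.55 to 2.40 although up to 5226 bp wide, and the strongest region, at a fold of 460, is 731 bp wide.

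**Figure D3:**
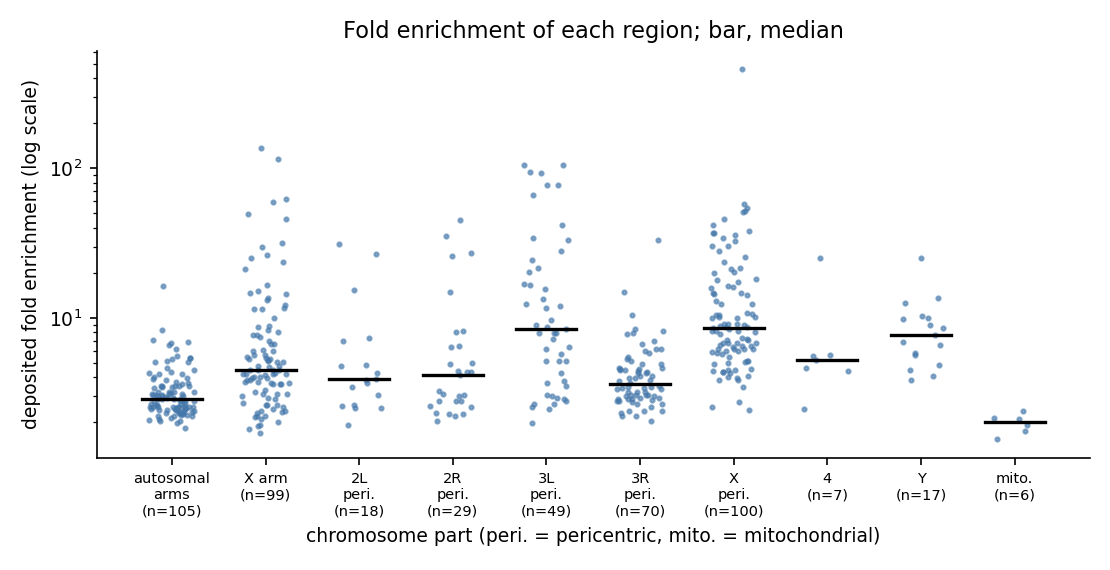
Deposited fold enrichment (log axis) of each region by chromosome part, with the median as a bar and the number of regions under each label. Medians were 2.89 in the autosomal arms, 4.47 in the X arm, 8.36 in the pericentric part of 3L and 8.60 in that of X.

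The most numerous group lay in and beside annotated ribosomal RNA genes in the pericentric part of X. When regions at most 100 kb apart were joined into runs, all 100 pericentric regions of X formed 1 run at X 23151857 to 23538557, over 387 kb, with a median gap of 482 bp between neighbours. Part of this interval carries annotated copies of the ribosomal RNA genes, which encode the RNA of the ribosome and are repeated in tandem. Regions fell in 13 of the 14 pericentric ribosomal RNA pseudogenes and in both pericentric ribosomal RNA genes, 5.8SrRNA:CR40454 and 2SrRNA:CR45864, each of which lay wholly under a region. The copies are near-identical, so which of them a signal came from is uncertain. The region at X 23211894 to 23215256, 3363 bp wide with a fold of 58.0, spanned the pseudogenes 5.8SrRNA-Psi:CR45857 and 2SrRNA-Psi:CR45858 and reached into 18SrRNA-Psi:CR41602 and 28SrRNA-Psi:CR45859 at its sides. A region at X 23239197 to 23242156, with a fold of 54.6, covered the whole of 28SrRNA-Psi:CR40741. The precursor gene pre-rRNA:CR45856 lay under a region of 6164 bp at X 23278007 to 23284170 with a fold of 21.4. The microRNA genes mir-10404-3, mir-10404-4 and mir-10404-5, which sit in ribosomal RNA repeats, were each covered in full, under folds of 28.1, 25.4 and 51.2.

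Most of the run lay outside these genes. Of its 100 regions 10 touched an annotated gene, and 43 had a fold above 10. No gene is annotated between 2SrRNA:CR45864, which ends at X 23291729, and mir-10404-5, which starts at X 23538215. Whether the regions outside genes are ribosomal DNA was not tested. The strongest region of the list, at X 23253112 to 23253842, had a fold of 460 and a −log10 q-value of 15659 over 731 bp. It lay between the pseudogenes 28SrRNA-Psi:CR40741, 12137 bp to its left, and 28SrRNA-Psi:CR41609, 7930 bp to its right, and held no annotated gene. The next 2 regions by fold stood at 137 and 116. The widest regions of the run measured 11244 bp, at X 23444603 to 23455846 with a fold of 7.10, and 6717 bp, at X 23349437 to 23356153 with a fold of 7.14.

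Other genes of small RNAs outside the mitochondrial sequence were free of regions. None of the 96 annotated 5S genes, which form a cluster on 2R, held a region, and neither did the 32 small nuclear RNA genes or the 269 small nucleolar RNA genes. Transfer RNA genes held regions in 22 of 312 cases, and all 22 were mitochondrial. Over all 17833 annotated genes 172 (0.965%) held at least 1 bp of a region and 82 (0.46%) had at least 10% of the body under regions, and short genes have little room to do so.

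On the autosomes the strongest regions lay in gene-free stretches of the pericentric parts. The pericentric part of 3L held 7 of the 10 regions of highest fold. A run of 15 regions at 3L 24593136 to 24685605 had 53.3% of its 92.5 kb under regions and held no gene. It included the widest region of the list, 14318 bp at 3L 24602420 to 24616737 with a fold of 94.4, and its neighbours of 8159 and 7512 bp, which belong to 1 call with a fold of 106. The nearest annotated genes were CR41597 on the left and scro, which encodes a homeobox protein, on the right, 107425 bp from the widest region. A second run of 15 regions at 3L 26878235 to 27093689 held folds from 3.65 to 93.2, with 12 above 10. Its strongest region lay at 3L 27006538 to 27011261, 70830 bp from CG40228, and a region of fold 34.1 reached 12 bp into that gene.

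On 3R a run of 49 regions started at base 825 and ended at 328639, with a median fold of 3.78 and a highest fold of 33.3, and none of its regions lay in a gene. On 2L a run of 10 regions at 23093233 to 23124639 reached a fold of 31.2. On 2R the strongest region lay at 5053368 to 5056687 with a fold of 45.1, between lncRNA:CR44105 and TpnC41C, a troponin C gene. The runs on 2L and 3R held no HP1 peak, nor did the run at 3L 24593136 to 24685605, and the second run on 3L held 1.

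A small share of pericentric protein-coding genes held a region, though a larger one than over all protein-coding genes. Of the 211 protein-coding genes in the pericentric parts 10 (4.74%) held a region, beside 0.824% of all 13948 protein-coding genes, and none of the 10 had as much as 10% of its body covered. Their median length was 175400 bp, compared with 4974 bp for all 211. Of the 28 genes in the list of pericentric genes, 3 held a region, 21 an HP1 peak and 20 an H3K9me3 peak. Over all protein-coding genes 3.71% held an HP1 peak and 1.26% an H3K9me3 peak, and over the 211 pericentric ones 51.2% and 40.3%. Myo81F, a myosin gene of 1965857 bp on 3R, held 8 regions over 3479 bp with folds up to 4.64. AGO3, which encodes an Argonaute protein of the piRNA pathway, held 1 region of 494 bp and fold 5.17. The MAP kinase gene rl held a region of 315 bp at 2R 1097734 to 1098048 with a fold of 15.0. Among the others, Pzl held 8 regions over 1832 bp and Maf1, a repressor of RNA polymerase III, 2 regions over 733 bp with folds of 2.04 and 2.21.

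The X arm held a separate group of strong regions among genes. A run of 31 regions spanned X 9204017 to 10340466, 1140 kb, with a median gap of 35760 bp, so that it was sparse compared with the pericentric runs. It rests on the 100 kb limit: with 200 kb it held 32 regions, and with 50 kb its largest piece held 6. Folds ran from 1.81 to 137 with a median of 6.11, and 15 of the 31 exceeded 10. In the X arm outside the run 7 of 68 regions did, and in the autosomal arms 1 of 105. Without the run the X arm still held 3.16 regions per Mb, compared with 1.14 in the autosomal arms, and a median fold of 4.17 compared with 2.89. This density was not even along the arm: of the 68 regions 12 lay in the first Mb of X and 21 in the last Mb of the arm. Widths in the run ranged from 178 to 1890 bp with a median of 457 bp, compared with 351.5 bp in the X arm outside the run and 250 bp in the autosomal arms.

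Genes in the run held 18 of its 31 regions. The strongest lay in CG32700 at X 9515414 to 9516061, 648 bp wide with a fold of 137, and a second region in this gene had a fold of 4.24. In alpha-Man-Ia, which encodes a mannosidase of glycoprotein processing, a region of 485 bp at X 10302411 to 10302895 had a fold of 116. In CARPB, a carbonic anhydrase-related gene, 1 region of 1556 bp had a fold of 62.1. Hk, which encodes a beta subunit of the Shaker potassium channel, held 2 regions with folds of 5.30 and 14.6. The receptor gene mgl held 3 regions with folds of 4.19, 4.46 and 5.35, and nej, which encodes the histone acetyltransferase CBP, held 3 with folds of 5.31, 2.16 and 3.72. Regions outside genes included folds of 59.5 at X 9904999 to 9905723 and 49.5 at X 9870101 to 9870562. The run's span held 6 HP1 peaks and no H3K9me3 peak, and none of its regions touched a peak.

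**Figure D4:**
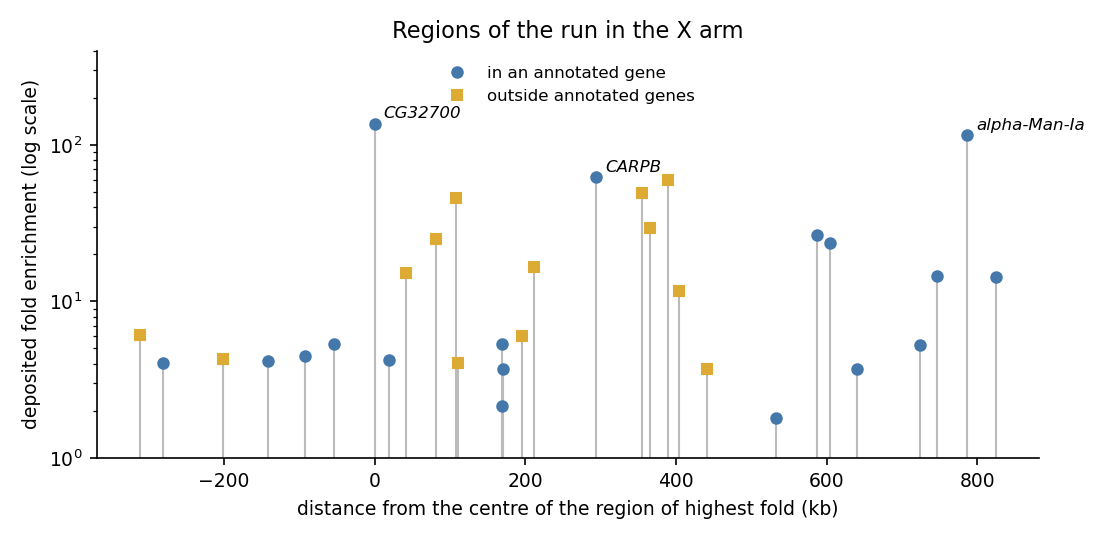
Deposited fold enrichment (log axis) of the 31 regions of the X arm run by distance in kb from the centre of the strongest region, which lies in CG32700. Strong and weak regions lie side by side along the run, and the regions in CARPB and alpha-Man-Ia, at 62.1 and 116, are also labelled.

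Elsewhere on X, regions above a fold of 10 lay in Ten-a, a teneurin gene of synapse formation, with folds of 21.3 and 11.4, in Pkcdelta, a protein kinase gene, with 31.7, and in kirre, an adhesion gene of muscle fusion, with 12.2. Near the X tip, 12 regions at 52492 to 240760 lay outside genes with folds from 1.92 to 8.62. Toward the pericentric end, 17 regions formed a run at X 22258220 to 22433194, also outside genes, with folds from 2.19 to 13.5.

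Autosomal arm regions were weak, and the strongest 2 lay among the repeated histone genes. The regions of this paragraph were singled out after their values were seen. The highest fold, 16.5, was at 2L 21424942 to 21425294, where the region reached into His4:CG31611 and His3:CG31613 and so covered the space between a histone H4 and a histone H3 gene. The next, 8.29, lay in the histone H1 gene His1:CG33801, and a region with a fold of 5.4 lay 40 bp from the pseudogene His-Psi:CR31614 and 931 bp from His3:CG33866. Altogether 3 of 111 replication-dependent histone genes (2.7%) held a region, beside 0.965% of all annotated genes. All 3 lay in this cluster of tandem copies, where the copy of origin is uncertain, and 2 of them shared 1 region. On 3R, regions with folds of 5.31 and 6.90 lay 13 and 2759 bp from the heat shock gene Hsp70Ba, and 1 with a fold of 4.44 lay in lncRNA:alphagamma-element:CR32865, although none of the 16 listed heat shock genes held a region. At the end of 2R, 6 regions between 25266381 and 25286727 lay beyond the last annotated gene with folds from 2.23 to 7.10.

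Among protein-coding arm genes 90 of 13620 (0.661%) held a region, with a median length of 20480 bp compared with 2136 bp for all. The most bases lay in Cyp28d2, a cytochrome P450 gene of 2079 bp covered in full by a region of 2866 bp with a fold of 6.77. Oseg2, which encodes a component of ciliary transport, had 33.1% of its body under 4 regions, which share the fold of 3.50. It was followed in bases by CARPB, Ten-a and CG9799, the last with 45.5% of its body under 2 regions. The growth regulator gene brat held 2 regions over 1190 bp with folds of 3.45 and 4.25, and mgl, Hk, nej and the GATA factor gene GATAd completed the first 10, with 1156, 1019, 1003 and 984 bp.

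The lists of patterning, Polycomb target, housekeeping, germline, ribosomal protein and Stellate genes held few or no regions. Of 30 wing disc patterning genes 1 (3.33%) held a region, beside 0.824% of all protein-coding genes: inv, a homeobox gene of the posterior compartment, with 333 bp and a fold of 2.36. An HP1 peak was held by 11 of the 30, beside 3.71% of all protein-coding genes. The median length of the 30 was 15380 bp, compared with 2159 bp for all protein-coding genes, and a longer gene has more room to hold a region or peak. No region fell in the 22 Polycomb target genes, the 17 housekeeping genes, the 12 germline genes, the 85 ribosomal protein genes or the 48 Stellate and Suppressor of Stellate genes. At these shares, lists of this length could not show a lack. The gene of HP1a itself and the genes white and yellow held no region, and 1 of these 3 genes held an HP1 peak.

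Of all 500 regions 165 (33.0%, 28.9 to 37.3) lay in annotated genes and 53 (10.6%, 8.04 to 13.6) within 200 bp of a gene end. In the autosomal arms 76 of 105 regions (72.4%) lay in genes, in the X arm 44 of 99 (44.4%), and in the pericentric parts 36 of 266 (13.5%). The share of each part's bases in genes or near gene ends was not counted. These values therefore show no preference for or against genes or their ends. The gene table gives ends but no strand, exons or introns, so starts and stops of transcription were not told apart.

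The mitochondrial sequence was covered widely and at low fold. Its 6 regions covered 77.5% of the sequence up to the last annotated base, with folds of 1.76, 2.13, 2.11, 1.55, 2.40 and 1.93 in order along the sequence. The widest, 5226 bp at 1310 to 6535, covered COX1, COX2, COX3, ATP6 and ATP8, which encode subunits of the respiratory chain and the ATP synthase. Of 37 mitochondrial genes 36 held a region. The HP1 list holds 3 mitochondrial peaks, over ND4 and ND4L, over lrRNA and over srRNA, with folds of 12.3, 10.5 and 10.5. They touched no region but lay 55, 56 and 77 bp from the nearest. The H3K9me3 list holds none.

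The Y sequence held 17 regions although the discs are described as female, and from which sequence their reads came was not tested. Their folds ran from 3.85 to 25.1 with a median of 7.69. A run of 11 regions lay at Y 955541 to 1029410, among Suppressor of Stellate repeats but in none of these genes. The strongest, of fold 25.1, is not in a gene. The fertility gene kl-5, which encodes a dynein heavy chain of sperm, and the gene Ppr-Y held 1 region each, with folds of 6.57 and 12.5. The HP1 list holds 3 peaks on Y, none in a region, the nearest 84 bp from a region of fold 10.3 at 1416988 to 1418138. Chromosome 4 held 7 regions, of which 6 lay outside genes and 1, of fold 2.45, in fuss. The strongest, at 4 592941 to 593736 with a fold of 25.2, touched an H3K9me3 peak of fold 23.9.

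The last question was which regions met HP1 or H3K9me3 peaks. HP1 was touched by 15 regions (3.00%, 1.69 to 4.90), each in the arms and each of low fold. From the other side, 15 of 1435 HP1 peaks (1.05%) and 63 of 2245 H3K9me3 peaks (2.81%) touched a region. Many rows of both peak lists are parts of calls, since 73.5% of HP1 rows and 54% of H3K9me3 rows do not contain their summit. None of the 266 pericentric regions and none of the 7 on chromosome 4 touched HP1, where HP1 peaks covered 3.17% and 18.8% of the bases. Of these pericentric regions 100 lay on X and 70 on 3R, which held 2 and 51 of the 540 pericentric HP1 peaks. The 3.17% is pooled over the pericentric parts, so it is not the share where most of these regions lay. In the arms, where HP1 covered 0.265%, the share was 15 of 204 (7.35%, 4.17 to 11.8). A share of regions touching by 1 bp and a share of bases are unlike measures. In bases, HP1 shared 1305 of the 90524 bp under arm regions. The 15 regions had folds from 1.82 to 4.64, and the strongest of them ranked at 237 of 500. Overlaps were short: 6 to 234 bp were shared, with a median of 17.0% of the region, and 3 regions had at least 50% under HP1.

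Of the 15 regions 10 lay in genes (66.7%, 38.4 to 88.2), near the share of all arm regions, 120 of 204 (58.8%). Those at X 5047120 to 5048141 and 5053046 to 5053294 lay in lncRNA:CR44833, the first 132 bp from ovo and the second inside it, with folds of 4.19 and 2.33. The gene ovo encodes a zinc-finger protein of the germline and epidermis. Others lay in bowl, a zinc-finger gene of leg and gut patterning (3.05), in Gug, which encodes the corepressor Atrophin (2.28), in the phosphodiesterase gene Pde9 (2.88), in the Ras GTPase-activating gene vap (2.62) and in CG13073 (1.99), with the fold of the region in parentheses. The region with the longest overlap, 234 bp, was that in vap. The region at X 12751935 to 12752298, in lncRNA:Vinr and lncRNA:CR44619, met an HP1 peak of fold 10.9, the highest among the 15 HP1 peaks that touched a region. Regions at 2L 9982851 to 9983172 and in lncRNA:CR13130 met parts of HP1 calls beside the channel gene bib, and that in CG18766 and lncRNA:CR46085 had a fold of 3.38. Outside genes lay regions near Gr47b on 2R, near CG18404 on 3R and at 114166 to 114325 and 115726 to 116077 on X. The last of these met an HP1 part of 8 bp.

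H3K9me3 was touched by 58 regions (11.6%, 8.93 to 14.7), of which 46 were pericentric, 6 on Y, 5 in the arms and 1 on chromosome 4, and no region touched both lists. These were 17.3% of the pericentric regions, 35.3% of those on Y, 2.45% of those in the arms and 14.3% of those on chromosome 4. H3K9me3 peaks covered 6.11%, 0.256%, 0.0531% and 18% of the bases of these parts. A share of regions touching by 1 bp and a share of bases are unlike measures. In bases, H3K9me3 shared 16893 of the 325453 bp under pericentric regions and 2009 of the 18097 bp on Y. In the arms it shared 1988 of 90524 bp, and on chromosome 4 647 of 4991 bp. The 58 regions had a median fold of 8.61 and a median width of 1043 bp, compared with 4.25 and 394 bp for the other 442, and a wider region has more room to touch. The 17.3% and the 6.11% are pooled over the pericentric parts and describe no single part. X held 32 of the 46 touching pericentric regions but 45 of the 1870 pericentric H3K9me3 peaks. Of the 100 pericentric regions of X 32 touched H3K9me3. From the other side, 37 of the 45 H3K9me3 peaks in the pericentric part of X (82.2%, 67.9 to 92.0) touched a region. That part held 2 HP1 peaks, over Rab21 and Coa7 and over CG17163, 138153 and 69140 bp from the nearest region. In the other pericentric parts the number of regions touching H3K9me3 was 1 of 18 on 2L, 5 of 29 on 2R, 6 of 49 on 3L and 2 of 70 on 3R. On Y the number was 6 of 17, beside 6 of the 22 H3K9me3 peaks there.

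The strongest region that met H3K9me3 was the ribosomal one of fold 58.0, which ranked 13, so that the 12 regions of highest fold touched neither list. Of the 5 arm regions 1 was the last listed region of 2R, 1600 bp wide with a fold of 2.23. Those at 52492 to 53209 and 53778 to 54752 near the X tip came from 1 call of fold 3.96. The other 2 lay toward the pericentric end of X, with folds of 5.08 and 4.46. None of the 5 lay in a gene. Touching regions shared 21537 bp with H3K9me3 in all, 4.78% of the bases under background regions, and 1305 bp (0.290%) with HP1.

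Distances showed how far apart the lists lay. The median distance to the nearest HP1 peak was 239 kb for pericentric regions and 45.4 kb for arm regions, and that to the nearest H3K9me3 peak 3.94 kb and 549 kb. Edges were not shared: no region directly adjoined a peak of either list. Between 1 and 100 bp from HP1 there were 10 regions and from H3K9me3 3. In the titles the background profile is yw and in the genotype label GFP-HP1a/+, and the part of that mismatch in these overlaps was not tested.

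**Figure D5:**
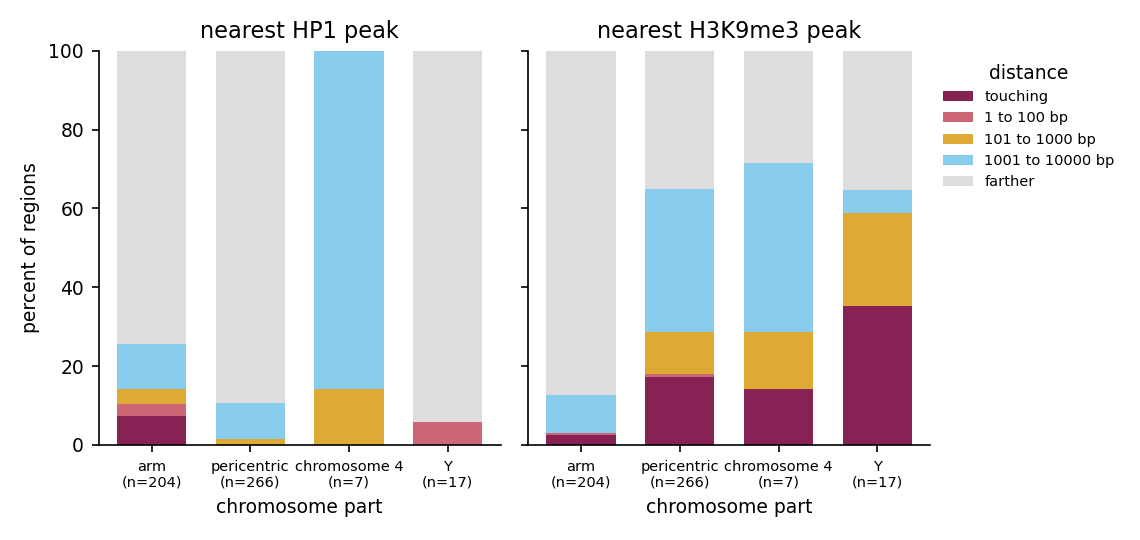
Percent of the regions of each chromosome part by distance to the nearest HP1 peak (left) and H3K9me3 peak (right). No pericentric region touched HP1 and 238 of the 266 lay farther than 10000 bp, whereas 46 touched H3K9me3 and 97 lay more than 1000 and at most 10000 bp away.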

How the data were processed

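Per the labels' protocols, CUT&RUN was run on at least 20 wing discs per library with antibodies at 1 to 100. MACS2 2.1.2, bedtools 2.26, SAMtools 1.10, Bowtie2 2.3.4.1 and the build dm6 are named in the submitters' processing notes. The 3 deposited lists have 10 columns. The fold enrichment is the authors' ratio per peak. The deposited −log10 q-value is the caller's, and the deposited score equals 10 times the −log10 q-value rounded down in all 500 background rows. The deposited summit offset counts from the start of a call. The names of the background rows carry call numbers up to 859, of which 487 (56.7%) are listed, so the list is a selection of calls whose rule is not given in the sources used here. In 50 rows (10.0%) the interval does not contain its summit, and 11 calls are split over 24 rows, so a fold describes the call and not the row. The peak lists are selected and split too, by a rule that is not given in the sources used here. The HP1 rows carry 1022 call names with numbers up to 8495, and the H3K9me3 rows 1772 with numbers up to 4033. Their folds also describe calls, and overlaps and distances hold for the listed parts only.

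Intervals were compared in Python 3.11.15 with pandas 2.3.3, numpy 2.4.6 and scipy 1.17.1, and tested on simulated intervals. At least 1 bp counted as touching. Genes, 17833 in number, came from RefSeq (assembly Release 6 plus ISO1 MT, dm6), and a chromosome was taken to end at the last base of any listed interval or gene. The 129 gene names entered by symbol each matched 1 gene. Shares carry exact binomial (Clopper-Pearson) intervals, which cover counting error only, since neighbouring regions of 1 library are not independent. Figures used matplotlib 3.10.9.

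The regions, gene lists and settings were chosen with earlier results of these data known. The rule for named items took the 20 regions of highest fold, the 10 widest, those on Y and the mitochondrial sequence, those touching HP1, arm regions touching H3K9me3, the 10 protein-coding genes with the most bases under regions in the arms and in the pericentric parts, and list members. The most important of these are described. The lists of ribosomal RNA pseudogenes and microRNA genes, and the joining of regions into runs of at least 10 regions, were added after seeing the data. The planned description of promoter motifs was not made.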

Additional observations from a re-analysis of the deposited data

How the results depend on the processing

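No paired analysis was possible because the lists carry no values of single replicates, which also kept replicates from being left out in turn. Of 35 alternative values for shares, medians and the gene count, 24 stayed within the 95% interval of the reported value or, for the gene count, within 1.5 times, and 11 moved. With at least 50% of the region covered, 0.6% of all regions and 1.47% of arm regions touched HP1, and 3.40% of all and 4.14% of pericentric regions touched H3K9me3. With a −log10 q-value of at least 5, which leaves 437 regions, 35.9% lay in the arms and 28.6% in genes, the median width was 503 bp and the median fold 5.11. By the middle base 5.20% lay within 200 bp of a gene end, and with a reach of 500 bp 15.2% did. Counting a gene from 10% of its body, 31 protein-coding genes held a region and not 115, and no gene of the patterning, pericentric and Y lists did. With the stricter q-value inv, the 1 patterning gene, was lost too. Moving the pericentric border by 0.5 Mb, or joining the rows of 1 call, kept each share within its interval. Depth per library is unknown, which limits every list to what the authors' caller passed.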
